A study of Penicillium oxalicum with 6 samples.

Results

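Among the genes that Penicillium oxalicum transcribed most strongly in an enzyme-producing culture, a group of 109 stood at no more than 50% of the parental level in a strain in which POc04478 was silenced. These 109 locus tags, of 9822 in all, were chosen by their values in the 6 libraries of the study. Each averaged 1 FPKM or more in the silenced libraries and 500 FPKM or more in the parental libraries, FPKM being a fragment count divided by the length of the transcript and the size of the library. The silenced mean was at most 0.5 of the parental mean, and every silenced value lay below every parental value. Among all tested IDs, 19.7% had such a ratio and 18.2% also had groups that did not overlap. They made up 26.5% of the 412 locus tags with a parental mean of at least 500 FPKM. Because the rule used the contrast between the strains, every difference between the strains in these genes is a description, and the test values printed with it support nothing beyond the rule.

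The silenced group comprised 3 libraries from mycelium in which POc04478 was silenced after copper ions had been added to 5 μM. The parental group comprised 3 libraries from the △PoxKu70 strain, the series title naming that strain as the background of the silencing, although the genotype field of the parental samples reads WT. In both groups spores were grown in glucose medium for 24 hours and the mycelium was kept for a further 24 hours in enzyme-producing medium. On the carbon source the labels differ, with raw starch in the treatment field and Avicel, a form of cellulose, in the protocol. Whether parental cultures received copper is not stated, so silencing and copper cannot be told apart. The labels name no promoter for the silencing construct and do not say whether the silenced strain was 1 clone or whether the replicates were separate cultures, so the spread between libraries may be partly technical.

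Filamentous fungi such as Penicillium secrete enzymes that break down plant polysaccharides, and when they are moved from glucose to a polymer a few transcripts, among them those of such enzymes, can take a large part of the messenger RNA. Transcription factors activate these genes in the presence of breakdown products of the polymer, and carbon catabolite repression shuts them down while glucose is present. Ku70 acts in non-homologous end joining, and strains without it are used as hosts for targeted gene replacement. In filamentous fungi, genes for 1 pathway can also lie side by side on a chromosome. Neither the deposited files nor the gene table used here gives product names, so no function is assigned to any of the genes below.

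The targeted gene was low in the strain labelled as silenced. POX_c04478, the locus tag with the number and chromosome letter of POc04478, had 15.9, 17.8 and 19.03 FPKM in silenced replicates 1, 2 and 3, against 159, 116 and 131 FPKM in parental replicates 1, 2 and 3. Its log2 fold change was -2.87 ± 0.15 (SE; limma adjusted p = 0.00012), and an exact permutation test (two-sided) gave 0.1, the lowest p that 3 against 3 libraries allow. Parental replicate 1 stood apart from the other parental libraries. Of 8468 tested locus tags, it lay 2-fold or more under both of the others in 690 and 2-fold or more over both in 216. For the members that rest most on it, the share remaining is given below with and without it. Also given below are the 2-fold counts of parental replicates 2 and 3, for members and other abundant tags.

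The 109 transcripts held a much smaller part of the messenger RNA in every silenced library than in any parental one. The rule sets this direction in advance, so the shares only describe its size. They took 4.07%, 4.30% and 4.35% of the summed FPKM in silenced replicates 1, 2 and 3, against 16.0%, 17.1% and 15.4% in parental replicates 1, 2 and 3. The group means were 4.24% ± 0.15 in the silenced libraries and 16.2% ± 0.87 in the parental libraries (SD, n = 3 each). The median over the 109 genes was 260, 298 and 335 FPKM in the silenced libraries and 1062, 1043 and 1067 FPKM in the parental libraries. Without the pair of most abundant members, POX_d04900 and POX_a00825, the remaining 107 still took 3.47% ± 0.17 in the silenced libraries and 13.2% ± 0.56 in the parental libraries. Less RNA per cell and fewer cells that make these transcripts cannot be told apart in whole mycelium. FPKM is also a share of its library, so a loss here and a gain elsewhere are not independent.

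Classes chosen in the opposite direction or for a steady level are given for comparison. The 126 locus tags with a silenced mean of at least 500 FPKM and at least 2-fold the parental mean, without overlap of the groups, took 17.1% ± 0.19 in the silenced libraries and 4.84% ± 1.56 in the parental libraries. The 77 locus tags at or above 500 FPKM in both groups with a ratio from 0.8 up to the inverse of 0.8 took 7.53% ± 0.13 in the silenced libraries and 7.54% ± 0.59 in the parental libraries (SD, n = 3 each). Both of these classes were also chosen on the contrast.

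**Figure D1:**
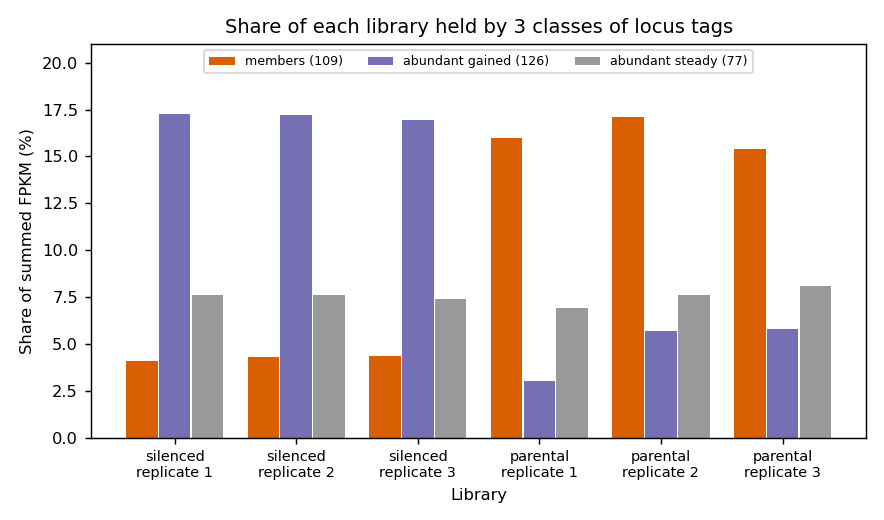
Share of the summed FPKM of each library (y axis, percent) held by the 109 members, the 126 abundant transcripts gained in the silenced strain and the 77 abundant steady transcripts, with 1 bar per class in each of the 6 libraries (x axis). Members take 4.07% to 4.35% in silenced libraries and 15.4% to 17.1% in parental libraries.

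Members filled a large part of the top of the parental transcriptome and little of the top of the silenced one. The direction follows from the rule, which chose them by high parental means and lower silenced means. By mean FPKM among locus tags, 0 of the 10 most abundant in the silenced libraries were members, against 5 of the 10 most abundant in the parental libraries. Among the 50 most abundant, members numbered 2 in the silenced and 16 in the parental libraries, and among the 100 most abundant, 3 in the silenced and 35 in the parental libraries. The 3 that stayed among the 100 most abundant silenced transcripts were POX_d04900, POX_a00825 and POX_b02863. The median rank of a member was 694 in the silenced libraries and 184 in the parental libraries. Most members were still well transcribed in the silenced strain: 29 kept a mean of at least 500 FPKM, 99 a mean of at least 100 FPKM, and no member was listed at 0 in any library.

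**Figure D2:**
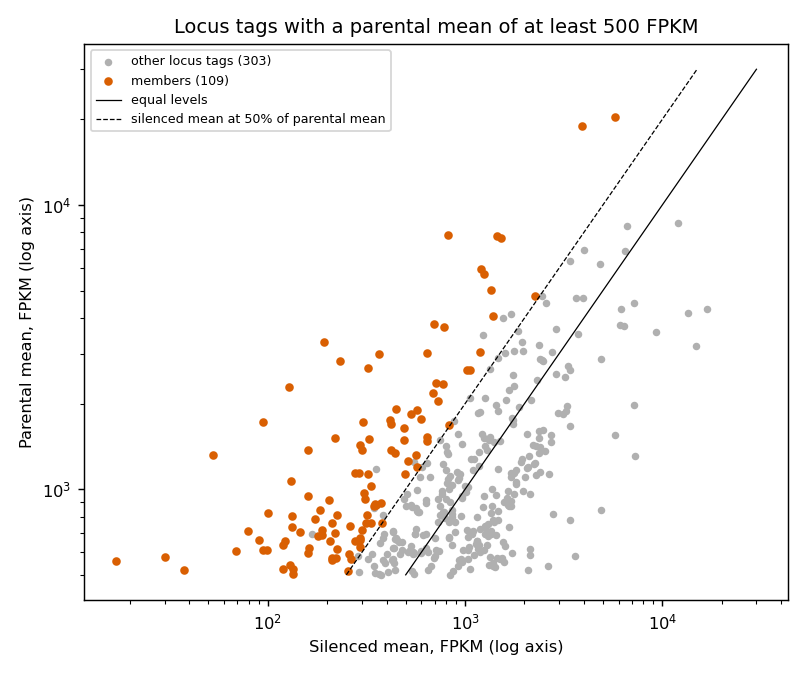
Mean FPKM in the silenced libraries (x axis, log scale) and in the parental libraries (y axis, log scale) of all 412 locus tags with a parental mean of at least 500 FPKM, with the 109 members in orange and the other 303 in grey. The solid line marks equal levels and the dashed line a silenced mean at 50% of the parental mean, which bounds the members by rule.

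The 10 members with the highest parental means covered a range of behaviours. POX_d04900, on chromosome IV, had 6052, 6045 and 5178 FPKM in silenced replicates 1, 2 and 3, against 20567, 23526 and 17091 FPKM in parental replicates 1, 2 and 3. POX_a00825, on chromosome I, had 3585, 3952 and 4270 FPKM in the silenced libraries, against 19062, 19337 and 18368 FPKM in the parental libraries. These were the highest and the second highest parental means of all locus tags, the groups were far apart, and 28.2% and 20.8% of the parental means remained. POX_e07317, on chromosome V, had 916, 865 and 677 FPKM in the silenced libraries, against 7745, 9317 and 6425 FPKM in the parental libraries, so that 10.5% remained. POX_b02315, on chromosome II, had 1348, 1515 and 1703 FPKM in the silenced libraries, against 8348, 4911 and 9637 FPKM in the parental libraries, with parental replicate 2 the lowest of its group. POX_e06297, on chromosome V, had 1248, 1189 and 1298 FPKM in the silenced libraries, against 5851, 5439 and 5850 FPKM in the parental libraries. In that gene the libraries of a strain lay close together, with a coefficient of variation (CV) of 4.40% in the silenced group and 4.16% in the parental group.

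Others in the top 10 were less even between parental libraries. POX_d05676, on chromosome IV, had 1496, 1576 and 1292 FPKM in the silenced libraries, against 3213, 10875 and 9154 FPKM in parental replicates 1, 2 and 3. Parental replicate 1 was there less than 50% of either other parental value yet still above every silenced value, and 18.8% of the parental mean remained with it and 14.5% without it. POX_g09376, on chromosome VII, had 1381, 1259 and 972 FPKM in the silenced libraries, against 3924, 8603 and 5337 FPKM in the parental libraries. POX_c03952, on chromosome III, had 1456, 1376 and 1204 FPKM in the silenced libraries, against 4479, 6208 and 4379 FPKM in the parental libraries. POX_b02863, on chromosome II, came closest to the ratio limit among the 10, with 2347, 2336 and 2141 FPKM in the silenced libraries and 3567, 5280 and 5456 FPKM in the parental libraries. POX_a00235, on chromosome I, had 1055, 1387 and 1723 FPKM in the silenced libraries, against 4548, 4231 and 3386 FPKM in the parental libraries.

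How much remained varied widely among the members. The median was 26.8% of the parental mean, with quartiles of 18.9% and 38.9% and a range of 3.04% to 49.7%. In 8 members at most 10% remained, in 39 between 10% and 25%, in 40 between 25% and 40%, and in 22 between 40% and 50%. By parental abundance, the median remaining was 27.4% for the 54 members with a parental mean under 1000 FPKM, 28.5% for the 30 from 1000 to 2000 FPKM, 30.01% for the 17 from 2000 to 5000 FPKM and 20.5% for the 8 at or above 5000 FPKM.

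The 10 members with the lowest share remaining ended at very different levels in the silenced libraries, with ranks among locus tags between 264 (POX_e07317) and 5723 (POX_b01993). POX_b01993, on chromosome II, had 19.2, 18.4 and 13.5 FPKM in silenced replicates 1, 2 and 3, against 673, 635 and 375 FPKM in parental replicates 1, 2 and 3. It was 32.9-fold lower in the silenced strain, the lowest share remaining of all members, and its rank among locus tags was 5723 in the silenced libraries and 381 in the parental libraries. POX_c04731, on chromosome III, had 30.8, 32.7 and 27.3 FPKM in the silenced libraries, against 661, 767 and 299 FPKM in the parental libraries. POX_d05953, on chromosome IV, had 196, 194 and 186 FPKM in the silenced libraries, against 4487, 2896 and 2490 FPKM in the parental libraries. Its silenced values lay within a few percent of each other while the parental values spread, and it was 17.1-fold lower in the silenced strain. POX_d05966, further along the same chromosome, had 184, 222 and 287 FPKM in the silenced libraries, against 3494, 2601 and 2358 FPKM in the parental libraries. POX_d05326, also on chromosome IV, had 164, 136 and 83.6 FPKM in the silenced libraries, against 1108, 4479 and 1252 FPKM in the parental libraries, so its parental mean rests largely on replicate 2. POX_g08575 and POX_g08577, on chromosome VII, kept 5.49% and 7.21% of their parental means, and POX_c04729, on chromosome III, kept 4.00%. POX_f08277, on chromosome VI, had 81.2, 78.8 and 78.7 FPKM in the silenced libraries, against 492, 531 and 1109 FPKM in the parental libraries.

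**Figure D3:**
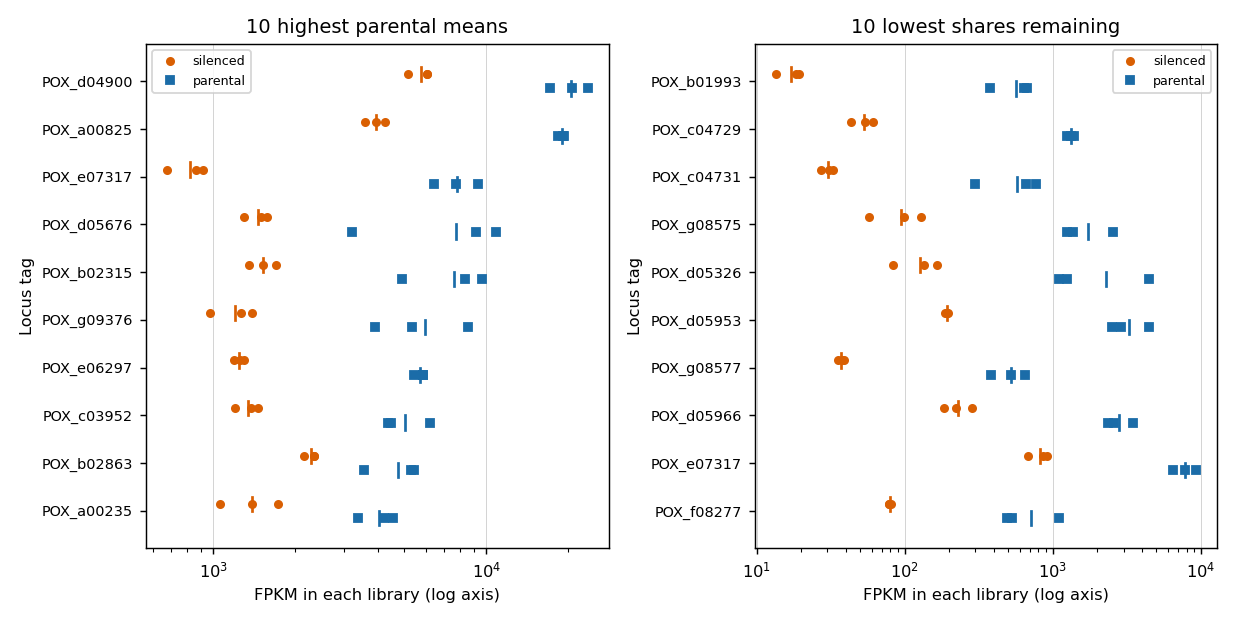
FPKM of single libraries (x axes, log scale) for the 10 members with the highest parental means (left) and the 10 with the lowest share remaining (right), with silenced libraries as orange circles, parental libraries as blue squares and group means as vertical ticks. No silenced point reaches a parental point in any gene, as the rule requires, and the parental points spread more than the silenced ones in most genes shown.

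In the fit across all 9341 tested IDs (limma on log2(FPKM + 1), Benjamini-Hochberg), 108 of the 109 members had an adjusted p under 0.05 and a lower level in the silenced strain. That call was made for 30.4% of all tested IDs and for 33.3% of the 412 abundant parental locus tags. Since the rule chose the members on this contrast, nothing is read from the count. The median log2 fold change was -1.84 over the members and -0.12 over all tested IDs. Median-of-ratios scaling moved these medians to -1.70 over the members and 0.0017 over all tested IDs. The member without a call was POX_a00752, at 154, 216 and 290 FPKM in the silenced libraries and 1440, 344 and 329 FPKM in the parental libraries (log2 fold change -1.36 ± 0.59, SE; limma adjusted p = 0.092).

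Locus tags lay close to the limits of the rule on the ratio side and on the level side. Just inside the limit, POX_d05360, POX_c03596, POX_d05776, POX_b02863 and POX_b02461 kept 49.7%, 49.1%, 49.0%, 47.7% and 47.7% of the parental mean. Just outside, POX_a00756, POX_a00750, POX_a01831, POX_a00280 and POX_a00751 kept 50.03%, 50.2%, 50.4%, 50.6% and 50.7%. Of these, POX_a00756, POX_a00750 and POX_a00751 also failed on overlap. Their lowest parental value was 0.96, 0.80 and 0.82 of the highest silenced value. Near the level limit, POX_b03322, POX_b02747, POX_g08577, POX_c03596 and POX_a01315 had parental means of 523, 523, 518, 517 and 502 FPKM. POX_a01776, at 493 FPKM, was the nearest tag left out by its level alone. The gap between the groups, the lowest parental value over the highest silenced value, had a median of 2.29, was at least 2 in 63 members and was smallest in POX_a00752 at 1.13.

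Another 9 locus tags met the level and ratio limits and were left out only because a silenced value reached a parental one. For comparison, all silenced values lay below all parental values in 36.6% of the tested IDs and in 39.8% of the abundant parental locus tags. In each of the 9, parental replicate 1 lay at an end of the parental values. It was the highest parental value in POX_a00749, POX_a00754, POX_a00755, POX_a00758, POX_a00762 and POX_a00764, and the lowest in POX_c04643, POX_e06565 and POX_f07963. POX_c04643, for example, had 323, 350 and 384 FPKM in the silenced libraries, against 294, 2028 and 1221 FPKM in parental replicates 1, 2 and 3.

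Members varied more between parental than between silenced libraries. The median CV was 10.8% in the silenced group and 25.8% in the parental group, and the parental CV was the larger in 88 of 109 members (80.7%). The same was true of 286 of the 303 other abundant parental locus tags (94.4%), whose median CV was 6.57% in the silenced group and 23.6% in the parental group, so the wider parental spread was not limited to members. A highest value at least 2-fold the lowest was seen in 6 members among silenced libraries and in 33 among parental libraries. The ordering of the libraries was uneven. Silenced replicate 3 gave the highest silenced value in 65.1% of members, in 39.3% of the other abundant tags and in 57.0% of all tested locus tags. Parental replicate 2 gave the highest parental value in 42.2% of members, in 22.8% of the other abundant tags and in 29.3% of all tested locus tags. No test was made of these shares, since genes of a library are not independent.

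Several members owed part of their parental mean to parental replicate 1. It was at least 2-fold above both other parental libraries in 9 members: POX_a00573, POX_a00746, POX_a00752, POX_a00761, POX_a01354, POX_b02293, POX_c04325, POX_g09366 and POX_h09721. It was at least 2-fold below both in 4: POX_b02529, POX_b03263, POX_b03406 and POX_d05676. Among the 303 other abundant tags the counts were 13 above (4.29%) and 47 below (15.5%), against 8.26% and 3.67% of the members. Parental replicate 2 lay that far above both others in 2 members and below both in 3, and parental replicate 3 in 1 and 1. Among the 303 other abundant tags, parental replicate 2 had 2 above and 8 below, and parental replicate 3 had 2 above and 0 below. POX_a00573 had 110, 125 and 151 FPKM in the silenced libraries, against 1102, 236 and 291 FPKM in parental replicates 1, 2 and 3. Its silenced mean was 23.8% of the mean of all 3 parental libraries and 48.9% of the mean without parental replicate 1. The share remaining moved by more than 1.5 times in 5 other members: it was 31.2% with and 65.3% without that library for POX_a00752, 27.4% and 45.8% for POX_g09366, 22.4% and 34.9% for POX_a01354, 17.6% and 27.02% for POX_h09721, and 12.2% and 18.5% for POX_b02293. POX_b03406 showed the opposite order, at 555, 664 and 700 FPKM in the silenced libraries and 1086, 5004 and 2964 FPKM in the parental libraries.

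Leaving out parental replicate 1 kept most members below the ratio limit. Without it, 102 of the 109 still had at most 50% of the parental mean, and the median remaining was 28.6%, against 26.8% with all libraries. The 7 above 50% were POX_a00752 (65.3%), POX_a00761 (61.7%), POX_c04325 (57.9%), POX_c03596 (55.7%), POX_d05360 (55.0%), POX_c04056 (52.4%) and POX_g08735 (51.2%). When all parts of the rule were applied again to the other 5 libraries it chose 118 locus tags, of which 95 were among the 109, so that 14 members dropped out and 23 other tags entered.

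**Figure D4:**
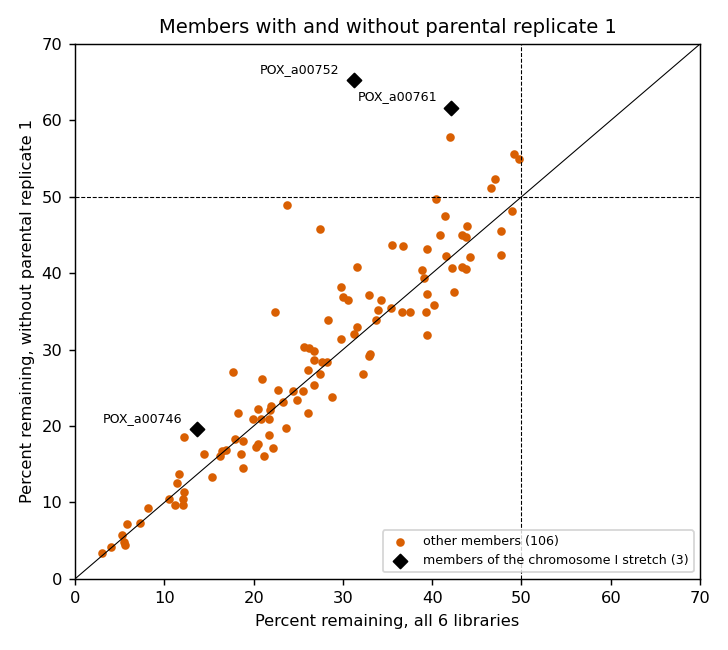
Percent of the parental mean remaining in the silenced libraries for each of the 109 members, from all 6 libraries (x axis) and without parental replicate 1 (y axis), with the diagonal marking equal values, dashed lines at 50% and black diamonds for the 3 members in the stretch from POX_a00746 to POX_a00764. POX_a00752 and POX_a00761 lie above 60% on the y axis, and 102 members stay at or below 50%.

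Members lay on all 8 chromosomes, with 26 on chromosome I, 21 on II, 15 on III, 19 on IV, 7 on V, 5 on VI, 9 on VII and 7 on VIII. Chromosome IV held 17.4% of the members and 8.31% of the other abundant tags, while chromosome V held 6.42% of the members and 16.9% of the others. Of all tested locus tags, 14.1% lay on chromosome IV and 12.0% on chromosome V. Within 50 genes of a chromosome end lay 12 members (11.0%), against 16 of the 301 other abundant tags with a position (5.32%). The share was 7.99% of tested locus tags. It was 13 of 125 gained tags (10.4%), close to that of the members, and 2 of 75 steady tags (2.67%). Among the 12 members were POX_e07317, at 15 genes from the end of chromosome V, and POX_g09376, at 2 genes from the end of chromosome VII. The annotated gene span, introns included, had a median of 1231 bp in members, 942 bp in the other abundant tags and 1469 bp in all tested locus tags.

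Some members were neighbours, and 11 of them (10.1%) adjoined another member. Another member lay within 5 genes for 26 (23.9%). Among the 301 other abundant parental tags with a position, which are more numerous, 37 (12.3%) adjoined another of them and 92 (30.6%) had one within 5 genes. Another gene of the same class lay within 5 genes for 19 of 125 gained tags (15.2%) and 10 of 75 steady tags (13.3%), classes of other sizes. The longest unbroken row was POX_a00235 to POX_a00238 on chromosome I, where all 4 genes were members. POX_a00236 had 1064 ± 115 FPKM in the silenced libraries and 2630 ± 848 FPKM in the parental libraries (SD, n = 3 each). POX_a00237 had 211 ± 33.1 FPKM in the silenced and 574 ± 162 FPKM in the parental libraries, and POX_a00238 had 316 ± 22.5 FPKM in the silenced and 764 ± 208 FPKM in the parental libraries. With POX_a00235, these 4 kept 34.2% to 41.4% of their parental means. The next gene on one side, POX_a00234, kept 87.4%, and POX_a00239 on the other side stood at 252% of a parental mean of 49.4 FPKM, so the low ratios ended sharply at both edges.

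The row POX_c03950 to POX_c03952 on chromosome III was bounded in the same way. POX_c03950 had 321 ± 64.1 FPKM in the silenced and 1133 ± 559 FPKM in the parental libraries, POX_c03951 had 218 ± 3.74 FPKM in the silenced and 1511 ± 348 FPKM in the parental libraries, and POX_c03952 kept 26.8% of its parental mean (SD, n = 3 each). POX_c03949 on one side had a mean ratio of 102% and POX_c03953 on the other had 433% of a parental mean of 4.29 FPKM. POX_d05952 and POX_d05953, adjacent on chromosome IV, differed in depth, with 33.9% and 5.83% remaining. POX_d04883 and POX_d04884, also adjacent on chromosome IV, kept 39.4% and 30.01%, and POX_d04879, 4 genes before the first of them, kept 23.3%. On chromosome VII the gene between POX_g08575 and POX_g08577, POX_g08576, kept 13.0% of a parental mean of 281 FPKM and was left out only by its level. Likewise, every one of the 6 genes from POX_b02073 to POX_b02078 on chromosome II had a ratio of at most 0.5. The 4 between the end members stood at 21.8 to 448 FPKM in the parental libraries. Low ratios ran past both ends there. POX_b02072 kept 15.2% of a parental mean of 223 FPKM, and POX_b02080 kept 29.0% of 324 FPKM. By contrast, POX_b03323, between the members POX_b03322 and POX_b03324, kept 82.3% of a parental mean of 13.3 FPKM.

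A stretch of 19 consecutive genes on chromosome I, POX_a00746 to POX_a00764, held 3 members, 6 of the 9 tags left out only on overlap, and 3 of the 5 tags just outside the ratio limit. The stretch was picked out after its values were seen. In 19 of the 19 genes parental replicate 1 was the highest of all 6 libraries, and in 17 it was at least 2-fold above both other parental libraries. It was also the highest of the 6 libraries in POX_a00744 and POX_a00745, just before the stretch, at only 8.93 and 9.89 FPKM. The stretch took 0.734%, 0.883% and 1.03% of the summed FPKM in silenced replicates 1, 2 and 3, against 3.78%, 1.04% and 1.203% in parental replicates 1, 2 and 3. POX_a00754 had 1140, 1559 and 1987 FPKM in the silenced libraries, against 8123, 2013 and 1918 FPKM in the parental libraries. POX_a00749 had 1007, 1233 and 1474 FPKM in the silenced libraries, against 7191, 1829 and 1452 FPKM in the parental libraries. In both genes silenced replicate 3 lay above parental replicate 3, parental replicate 2 lay above every silenced library, and parental replicate 1 stood far above all others.

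Over the stretch the median share remaining was 42.2% with all libraries and 79.5% without parental replicate 1. A ratio of at most 0.5 was found in 13 of the 19 genes with all libraries and in 2 without that library, POX_a00746 and POX_a00747. The member POX_a00746 differed from most of the stretch, at 78.8, 85.6 and 106 FPKM in the silenced libraries. It had 1062, 396 and 524 FPKM in the parental libraries, so that 19.6% remained without parental replicate 1. The low genes POX_a00744 and POX_a00745 just before it kept 18.0% and 15.9% without that library. POX_a00761 had 481, 652 and 799 FPKM in the silenced libraries, against 2495, 1072 and 1016 FPKM in the parental libraries. POX_a00765, which follows the stretch, had 5.22, 6.48 and 6.56 FPKM in the silenced libraries and was listed at 0, 0.96 and 2.41 FPKM in the parental libraries, so the high values of parental replicate 1 stopped at POX_a00764.

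**Figure D5:**
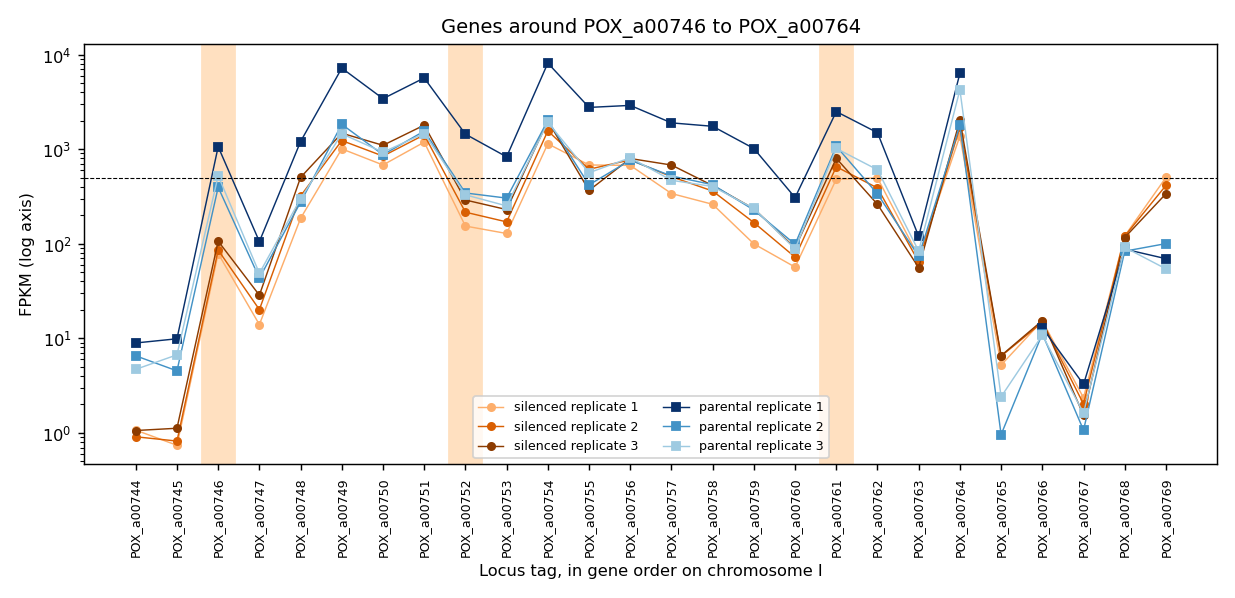
FPKM of each library (y axis, log scale) for consecutive genes of chromosome I from POX_a00744 to POX_a00769 (x axis, gene order), with silenced libraries in orange, parental libraries in blue, members shaded and a dashed line at 500 FPKM; a value listed at 0 is not drawn. Parental replicate 1 is the highest of the 6 libraries in all 19 genes from POX_a00746 to POX_a00764, and in 13 of them the lowest parental value lies below the highest silenced value.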

How the data were processed

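The authors deposited 1 table of FPKM per library, 6 in all, with the unit given per the file headers. Bcl2fastq and HISAT2 are listed, with no version or role, per the submitters' processing notes. How fragments were counted, on which build and with which annotation, is not given in the sources used here. Fragment numbers are unknown. Steps in low values gave no firm relative depth, since 455 of 5378 ratios between libraries matched. A prefix on the IDs of parental replicate 2 was removed, and 10899 IDs were joined, 9822 of them locus tags. Of these, 9718 matched the RefSeq table of assembly ASM172317v3, used for chromosome, gene order and span. Because the files name no build, no coordinates are printed.

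Limma 3.58.1 in R 4.3.3 was fitted on log2(FPKM + 1) with a variance trend and no block, over IDs that reached 1 FPKM in 3 or more of the 6 libraries. The code was checked on simulated data with independent noise in each gene and few planted changes. That run does not measure how the fit behaves here, where genes of a library are not independent. P-values (two-sided) were adjusted over all tested IDs (Benjamini-Hochberg), and fold changes on this scale understate changes of low genes.

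The members and lists were chosen with earlier results of these data known. Genes were named by rule: the target, the 10 highest parental means, the 10 lowest ratios, 5 members just inside each limit, 5 tags just outside the ratio limit, tags failing only on overlap, and adjacent members. Members split by parental replicate 1, flanking genes and stretches were named after their values were seen. Lists by product name, protein pattern or promoter motif were not used here. Alternatives changed the pseudocount, filter, scaling, trend, block, limits of the rule and libraries.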

Additional observations from a re-analysis of the deposited data

How the results depend on the processing

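The rule chose 98 locus tags after median-of-ratios scaling and 113 after scaling to the summed FPKM of locus tags, against 109, and 108 to 129 when 1 library was left out. It chose 197 with a parental mean of at least 250 FPKM, 55 with at least 1000 FPKM, 47 with a ratio of at most 0.25 and 107 with medians in place of means. The share of summed FPKM held by the chosen tags was 3.82% (silenced) and 15.2% (parental) after median-of-ratios scaling, 4.55% (silenced) after scaling over locus tags, and 4.33% to 5.39% (silenced) and 16.2% to 18.5% (parental) without 1 library. Each of these settings changes which tags are chosen, and leaving out a library also changes which libraries are averaged. A scale factor applied to a whole library leaves the share of a given tag unchanged. The shares after scaling therefore differ only through the tags chosen. Of the 109 members, 107 or 108 were called lower under the pseudocounts, filters, scaling and trend tried, and 100 to 108 without 1 library, with a median log2 fold change of -1.90 to -1.73. The target's log2 fold change was -2.97 to -2.75 without 1 library. Same-numbered libraries did not deviate together over all tested IDs, with correlations of 0.0014, 0.029 and 0.12 for replicates 1, 2 and 3. Over the members these correlations were -0.46, 0.20 and 0.069. Unlike-numbered libraries ran there from -0.54 (silenced replicate 3, parental replicate 2) to 0.55 (silenced replicate 1, parental replicate 2). The numbers therefore gave no basis for pairing. With a replicate block 107 members were called lower and the target's adjusted p was 0.0015 (limma). Over all these settings 100 members were called in each, and 9 were not called in at least 1. POX_a00752 was called in none. POX_a00761 lost its call in 6 settings (limma adjusted p = 0.052 to 0.14), POX_g09366 in 4 (adjusted p = 0.055 to 0.086), POX_b02529 in 4 (adjusted p = 0.058 to 0.065) and POX_a00573 in 3 (adjusted p = 0.073 to 0.11). POX_b03406 (adjusted p = 0.055 and 0.063), POX_c03950 (adjusted p = 0.057 and 0.067) and POX_c04325 (adjusted p = 0.066 and 0.070) lost it in 2 each, and POX_d04884 in 1 (adjusted p = 0.060). Apart from POX_a00761, which also lost it with no filter, median-of-ratios scaling or the block, each lost it only without 1 library, either a silenced library or parental replicate 3. POX_f07963, not a member, lost its call in 7 settings, with adjusted p-values of 0.056 to 0.13. POX_a00755, which was not called in any setting, ran from -1.22 without parental replicate 2 to 0.14 (log2), a change of sign, without parental replicate 1. Without parental replicate 1, POX_c04643 and POX_e06565 gained a call, as did POX_a00764 without parental replicate 2. The cause was not tested. Without fragment numbers no counting error can be given.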

Other observations

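Genes next to members were also examined. Of 177 tested genes that adjoin a member and are not members, 73 were called lower (41.2%) and 28 higher (15.8%), against 30.4% and 24.4% of all 9341 tested IDs (limma, adjusted p under 0.05). Their median log2 fold change was -0.45, against -0.12 over all tested IDs. No test was made of this difference, and the labels state no strand-specific step, so reads from overlapping neighbours could not be told apart.

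Of 13 IDs without a locus tag that had a parental mean of at least 500 FPKM, 4 met the same limits of ratio and overlap as the members. Among the 412 locus tags at that level, 109 (26.5%) met them, and with so few IDs nothing is read from the count.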
